A study of Mus musculus with 6 samples.

Results

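CD8+ T cells sorted from B16-OVA tumors of control mice were compared with CD8+ T cells sorted from the tumor-draining lymph nodes (LN) of the same group of mice, with 1 single-cell RNA library per tissue. The cells compared were those with 200 to 6000 detected genes, at most 3% of their unique molecular identifiers (UMIs, the tags that count single transcripts) from mitochondrially encoded genes, and in which *Cd2*, *Cd8a* and *Cd8b1* had all been detected. This kept 7106 of 11369 barcodes (62.5%) of the tumor library and 6658 of 12979 (51.3%) of the LN library, together 13764 of the 24348 control barcodes and of the 47860 barcodes of all 4 RNA libraries of the study. Of the barcodes that met the other limits, 2312 in tumor and 4122 in LN lacked 1 of the 3 genes, with medians of 1004 and 3251 UMIs. A further 1657 in tumor and 2081 in LN lacked 2 or 3 of them. The cells kept had medians of 6306 and 4053 UMIs, and 1677 and 3847 of them held only 1 UMI of at least 1 of the 3 genes.

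Control mice carried CD8-Cre and the Rosa26Tomato reporter with an intact *Ifngr1* gene, and were engrafted with B16-OVA, a mouse melanoma line that expresses ovalbumin. The other genotype of the study, CD8-IFNγRKO, carried the same Cre and reporter together with IFNgR1flox/flox, so that the receptor chain that binds IFNγ was deleted in cells in which the Cre had been active. Cells positive for CD45, CD3, CD8 and Tomato from 3 mice per genotype were pooled at day 12, and nothing in the files ties a cell to a mouse. The labels give no age for these mice. Tumors were digested with Liberase and DNase at body temperature, and the paper describes tumor cells as either passed over Ficoll or used directly. LN were pressed through a strainer without enzyme, so that tissue and tissue preparation cannot be told apart.

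Naive CD8+ T cells circulate through LN by means of adhesion molecules and the chemokine receptor CCR7, and leave by following sphingosine-1-phosphate through S1PR1. After a T cell meets its antigen these homing genes and the transcription factors that hold the resting state, such as TCF1 (*Tcf7*) and KLF2, are shut down, and the cell divides, turns to glycolysis and fills granules with perforin and granzymes. In tumors, where antigen persists, CD8+ T cells also keep inhibitory receptors such as PD-1 (*Pdcd1*), LAG-3 and TIM-3 (*Havcr2*) on their surface, a state known as exhaustion.

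The cells kept held 59500811 UMIs in tumor and 30029269 in LN. Ribosomal protein genes took 19.9% of the UMIs in tumor and 33.3% in LN, and mitochondrially encoded genes 0.673% and 1.20%. With all cells thinned to 1600 UMIs drawn at random, the median number of genes detected was 883.5 in tumor and 797 in LN. The libraries shared 82 cell barcodes, 1.15% of the tumor cells and 1.23% of the LN cells. Because there was 1 library a side, no test was possible. The 95% intervals given here are exact, by the Poisson distribution for CPM (UMIs of a gene per 1000000 UMIs of the pooled cells), by the binomial distribution given the sum of both counts for ratios, and by Clopper-Pearson for the share of cells, and cover counting error only.

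The labelled cell type was checked against its markers. A CD8 T cell list of 18 genes holds *Cd2*, *Cd8a* and *Cd8b1*, whose presence was fixed by the choice of cells. All 18 passed a mean of 10 CPM over both libraries, and 17 of them lay within 2-fold. *Cd3g* was the exception, at 2118 CPM in tumor and 925 CPM in LN. *Cd8b1*, used to choose the cells, stood at 1168 CPM in tumor and 1172 CPM in LN and *Ptprc* (CD45) at 566 CPM in tumor and 709.8 CPM in LN. Markers of other cells were then summed. The 10 macrophage genes summed to 20 CPM in tumor and 3.60 CPM in LN, and 16 and 2 cells held at least 3 of them. The 7 melanoma genes summed to 4.39 CPM in tumor and 2.53 CPM in LN, of which *Mitf* made up 0.538 and 2.33 CPM. At least 3 of them were held by 8 tumor cells and 0 LN cells. The 3 CD4 T cell genes summed to 9.31 and 12.2 CPM. The 5 genes of NK or γδ T cells summed to 12.9 and 2.30 CPM, and those of neutrophils, erythroid and stromal cells to at most 2.13 CPM in either library. The 8 dendritic cell genes summed to 84.8 CPM in tumor and 10.1 CPM in LN, of which *Cd74* alone made up 51.1 and 8.43 CPM. At least 3 of these 8 genes were held by 29 tumor cells and 1 LN cell. The 7 B cell genes summed to 11.6 CPM in tumor and 241 CPM in LN, of which *Ighm* made up 7.13 and 223 CPM, and *Cd79b* 0.387 and 17.3 CPM, while *Ms4a1*, *Cd79a*, *Igkc* and *Pax5* had 7, 17, 5 and 0 UMIs in LN. The part of these other cells in the results was not tested.

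Of 7469 genes with a mean of at least 10 CPM, 1063 (14.2%) were at least 2-fold higher in tumor and 656 (8.78%) at least 2-fold higher in LN, on the scale of log2 ratios with 1 CPM added to each library. The other 5750 lay within 2-fold. Large differences were more frequent toward the tumor, where 277 genes were at least 8-fold higher, against 74 in LN. Of the genes higher in tumor, 437 were below 10 CPM in LN, and of those higher in LN, 248 were below 10 CPM in tumor. The median log2 ratio of all 7469 genes was 0.05, with the 5th percentile at -1.34 and the 95th at 2.35. At the edge of the call, *Rwdd1* at 221 CPM in tumor and 110.0 CPM in LN was just past 2-fold and *Elof1* at 68.4 CPM in tumor and 33.8 CPM in LN just under it. On the LN side, *Kif21b* at 62.4 CPM in tumor and 126 CPM in LN was just under it. The split depended on scaling. With ribosomal protein, mitochondrial, T cell receptor and immunoglobulin genes left out of the library size, which moved the median log2 ratio by -0.27, 866 genes were higher in tumor and 1316 in LN, so that the tumor share of the called genes went from 61.8% to 39.7%. All 656 genes higher in LN were also called under that scaling, as were 778 of the 1063 higher in tumor. Of the genes named in the text as higher in tumor, *Cd3g*, *Tap1*, *Psmb9*, *Pdia3*, *Pdia6* and *Xcl1* were within 2-fold under it.

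**Figure D1:**
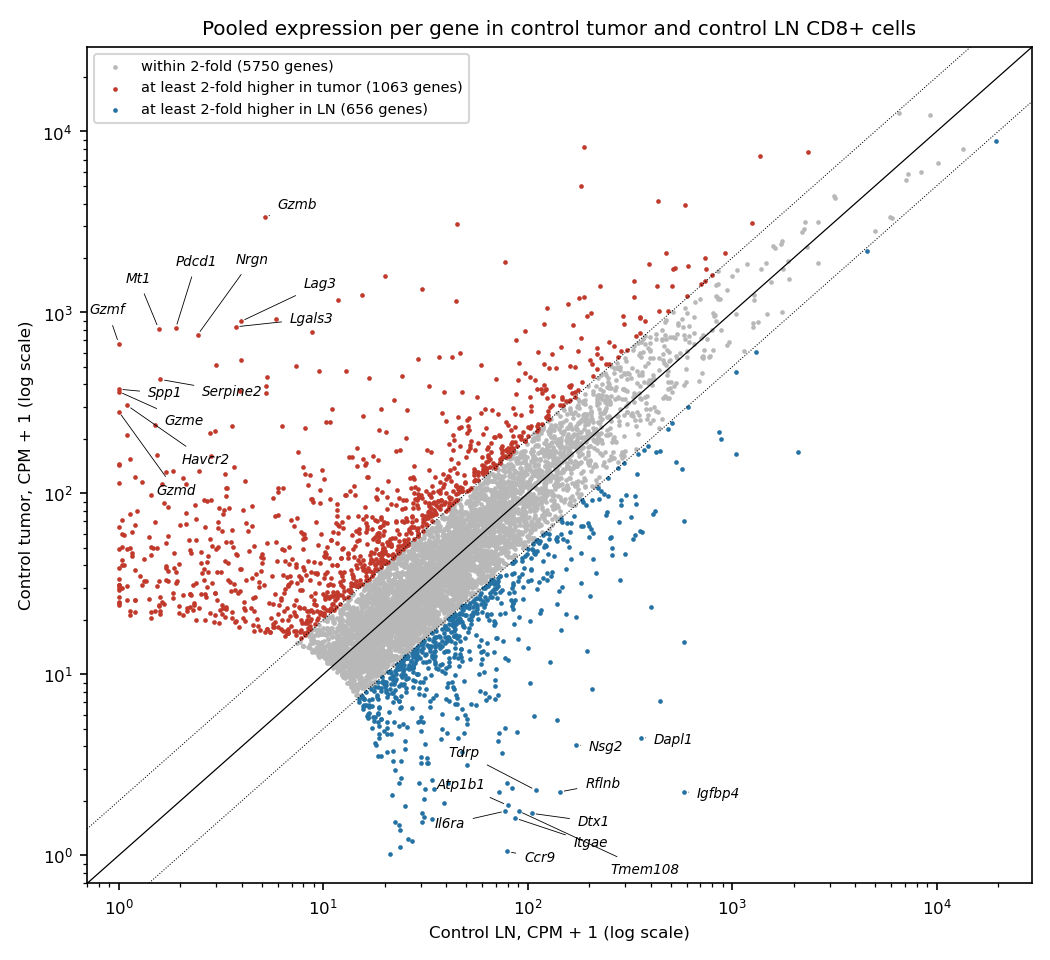
Pooled CPM plus 1 in control LN (x axis, log scale) and control tumor (y axis, log scale) for the 7469 genes with a mean of at least 10 CPM; each point is a gene, the solid line marks equal values and the dotted lines a 2-fold difference of the plotted values. The 12 highest and 11 of the 12 lowest log2 ratios among genes reaching 50 CPM on 1 side or both are labelled; granzymes, *Pdcd1*, *Lag3* and *Havcr2* lie at the left edge, near 0 in LN, and *Igfbp4* and *Dapl1* at the lower right.

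The 12 genes with the highest ratios held 4 granzymes, 3 inhibitory receptors and 5 genes of other kinds. *Gzmb*, the granule protease that starts apoptosis in target cells, stood at 3359 CPM in tumor and 4.20 CPM in LN, an 800-fold difference. *Gzmf*, *Gzme* and *Gzmd* stood at 672, 364 and 282 CPM in tumor and had 0 UMIs in LN. Against a floor of 3 UMIs in the LN library they were at least 6731-fold, 3647-fold and 2823-fold higher. *Spp1*, the secreted phosphoprotein osteopontin, stood at 376 CPM against 0 UMIs, at least 3762-fold higher. *Mt1*, a metallothionein that binds zinc, was at 813 CPM in tumor and 0.566 CPM in LN. *Nrgn*, a calmodulin-binding protein best known from neurons, was at 752 CPM in tumor and 1.43 CPM in LN. *Serpine2*, a secreted inhibitor of serine proteases, was at 425 CPM in tumor and 0.599 CPM in LN, and *Lgals3*, a galectin, at 832 CPM in tumor and 2.73 CPM in LN.

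The 12 lowest ratios were led by *Igfbp4*, which encodes a binding protein of insulin-like growth factors, at 1.24 CPM in tumor and 583 CPM in LN, a 469-fold difference. *Dapl1* was at 3.48 CPM in tumor and 359 CPM in LN. *Ccr9*, the chemokine receptor for homing to the gut, had 3 UMIs in tumor and 78.6 CPM in LN, a ratio of LN over tumor of 1558 (95% interval 532 to 7561). *Itgae*, the CD103 chain of the integrin that binds E-cadherin, was at 0.605 CPM in tumor and 86.0 CPM in LN. *Dtx1*, a regulator of Notch signaling, was at 0.706 CPM in tumor and 104 CPM in LN, and *Il6ra*, the IL-6 receptor, at 0.756 CPM in tumor and 76.9 CPM in LN. *Rflnb*, *Tmem108*, *Tdrp*, *Nsg2* and *Atp1b1* completed the group, with 78.7 to 172 CPM in LN and 0.756 to 3.08 CPM in tumor. In pooled counts fewer cells with a transcript and less of it per cell cannot be told apart. Shares of cells are given further on for 40 chosen genes, which leave out most of the genes named here.

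Gene lists by function were then set against these backgrounds of 14.2% and 8.78%. A list is described by the members that passed the floor of 10 CPM, how many of these were past 2-fold, and their median log2 ratio. The floor left out 1 of 16 homing genes, 1 of 18 naive transcription factors and 3 of 20 naive surface genes. It left out 1 of 21 cytotoxic genes, 6 of 21 cytokines, 4 of 20 inhibitory and 5 of 14 costimulatory receptors, 3 of 24 effector transcription factors and 4 of 23 feedback genes. Of the receptors for chemokines 5 of 12 were left out, and of those for cytokines 2 of 19. Among cell cycle genes these were 1 of 26 for replication and 5 of 29 for mitosis, and among metabolic genes 4 of 20 for glycolysis, 2 of 15 for hypoxia, 5 of 20 for serine and one-carbon metabolism and 8 of 23 for cholesterol. Of the IFNγ-linked and antiviral genes 2 of 28 and 5 of 25 were left out, and none of the CD8, survival, immediate early, chaperone and galectin lists.

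**Figure D2:**
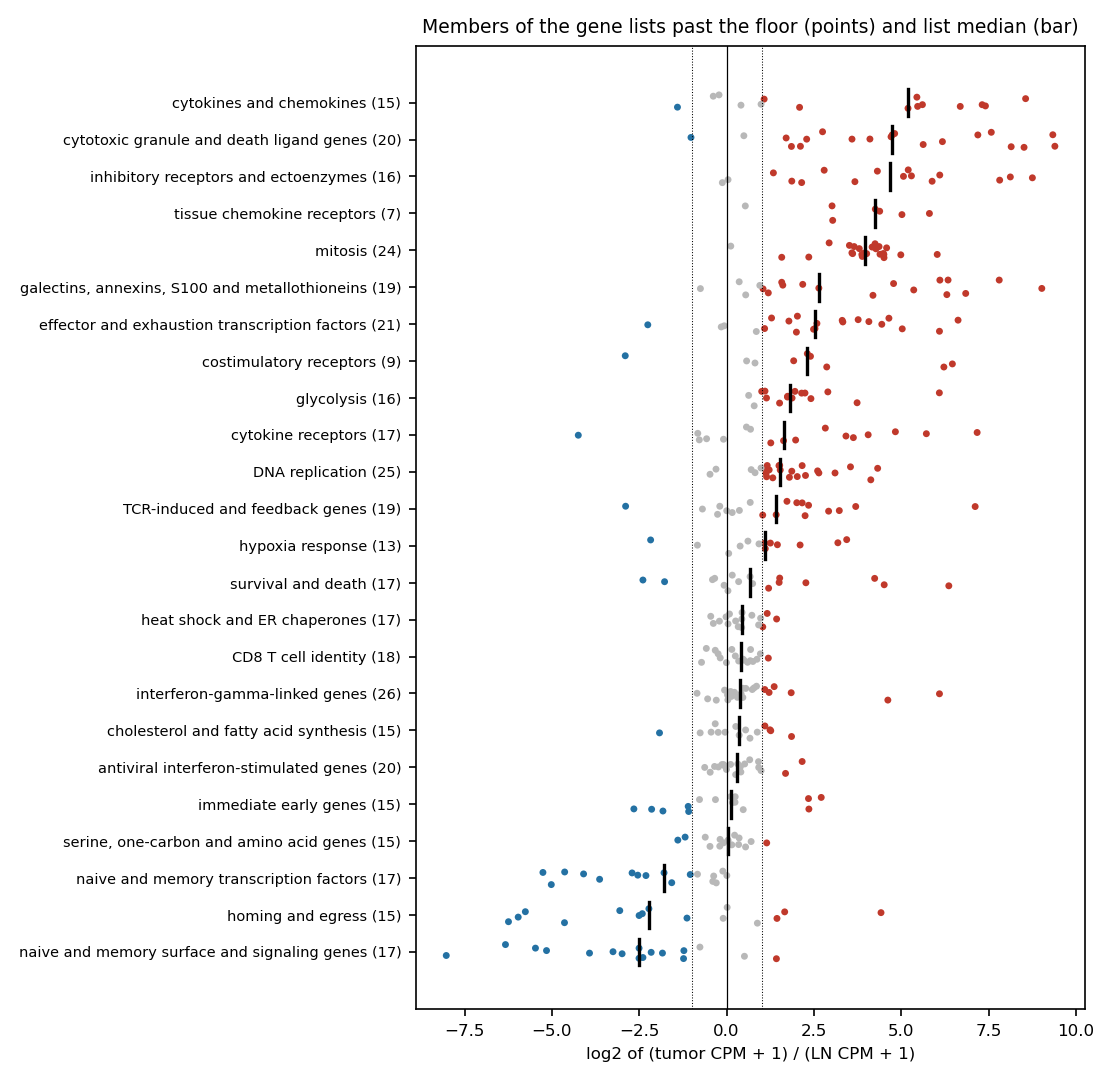
Log2 ratios of tumor over LN (x axis, 1 CPM added) of the members of 24 gene lists that passed the floor; each point is a gene, red at least 2-fold higher in tumor, blue at least 2-fold higher in LN, grey between, and the black bar is the list median. Cytokine, cytotoxic and inhibitory receptor genes lie to the right, with medians of 4.69 to 5.19 (3.64 for the cytokines without *Ccl5*), and the homing and naive lists to the left, with medians of -1.79 to -2.51.

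Homing genes were mostly lower in tumor. Of 15 that passed the floor, 9 were higher in LN and 3 higher in tumor, with a median of -2.22. *S1pr1* was at 7.26 CPM in tumor and 205 CPM in LN and *Ccr7* at 69.2 CPM in tumor and 584 CPM in LN. *Cd69*, which holds cells in tissue by binding S1PR1, was also lower in tumor, at 76.4 CPM in tumor and 411 CPM in LN, as was the mucosal integrin chain *Itgb7* at 57.7 CPM in tumor and 332 CPM in LN. The 3 members higher in tumor were integrin chains: *Itga1* (CD49a, a collagen receptor) at 24.7 CPM in tumor and 0.200 CPM in LN, *Itgb1* at 158 CPM in tumor and 49.1 CPM in LN and *Itgb2* at 548 CPM in tumor and 201 CPM in LN. Thus *Cd69* and *Itgae*, genes often read as a pair of tissue-residence markers, lay on the LN side while *Itga1* lay on the tumor side. Within LN, *Itgae* was at 25.1 CPM in cells with a *Ccl5* UMI and 95.7 CPM in the others, and *Cd69* at 459 and 403 CPM. Whether any of these cells were resident was not tested.

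Transcription factors of naive and memory cells gave 11 of 17 higher in LN and 0 higher in tumor (median -1.79). *Tcf7* was at 14.1 CPM in tumor and 578 CPM in LN and *Lef1*, its partner in Wnt signaling, at 22.5 CPM in tumor and 399.7 CPM in LN. *Klf2*, which drives *S1pr1*, was at 168 CPM in tumor and 2099 CPM in LN. *Id3* was at 1.23 CPM in tumor and 71.1 CPM in LN, *Bach2* at 14.2 CPM in tumor and 74.4 CPM in LN and *Foxo1* at 59.3 CPM in tumor and 207 CPM in LN. *Myb*, *Ets1*, *Nfatc3*, *Elf4*, *Foxn3* and *Runx1* were within 2-fold. Of the surface and signaling genes of naive and memory cells, 14 of 17 were higher in LN (median -2.51), among them *Il7r*, the receptor for the survival cytokine IL-7, at 61.0 CPM in tumor and 351 CPM in LN, and *Bcl2*, which protects from apoptosis, at 20.7 CPM in tumor and 113 CPM in LN. *Ly6c2*, an antigen of memory and effector cells, was the 1 member higher in tumor, at 1989 CPM in tumor and 739.8 CPM in LN, and *Cd27* lay within 2-fold at 212 CPM in tumor and 148 CPM in LN.

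Cytotoxic genes were the reverse: 18 of 20 were higher in tumor and 1 in LN, with a median of 4.72, or 4.76 with the 5 members at 0 UMIs in LN set at their bound. *Prf1* (perforin) was at 1162 CPM in tumor and 43.5 CPM in LN, *Nkg7*, a granule membrane protein, at 3931 CPM in tumor and 585 CPM in LN, and *Fasl*, the ligand of the death receptor Fas, at 116 CPM in tumor and 3.16 CPM in LN. The granzymes were far from equal. *Gzmk* was at 132 CPM in tumor and 0.833 CPM in LN, *Gzma* only at 44.7 CPM in tumor and 2.80 CPM in LN, and *Gzmc* at 209 CPM in tumor against 3 UMIs in LN (ratio 2090.2, 95% interval 715 to 10137). *Gzmm* was under the floor and lay the other way, at 1.16 CPM in tumor and 9.02 CPM in LN. *Serpinb9*, an inhibitor of granzyme B that protects the killer cell itself, was higher in tumor too, at 471 CPM in tumor and 8.56 CPM in LN. The related serpin gene *Serpinb9b* stood at 145 CPM in tumor against 0 UMIs in LN. *Lamp1*, the membrane protein of lysosomes and granules, was the member higher in LN, at 53.3 CPM in tumor and 109 CPM in LN, and it lay within 2-fold under 6 of the 13 alternative settings.

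The genes of granzymes B to G stand together on chromosome 14, and their 6 promoters lie between 56120576 and 56262584 (GRCm38.p6), within 142 kb. Those of *Gzmb* and of *Gzmd*, *Gzme* and *Gzmf*, the 3 with the highest tumor levels of the 4 that had 0 UMIs in LN (the other is *Gzmg*), are shown from RefSeq (250 bases before to 50 after the start of the gene), because these genes carried the largest differences. Capitals mark TGTGGT on either strand, the core word bound by RUNX factors.
Gzmb, chr14:56262285-56262584, minus strand: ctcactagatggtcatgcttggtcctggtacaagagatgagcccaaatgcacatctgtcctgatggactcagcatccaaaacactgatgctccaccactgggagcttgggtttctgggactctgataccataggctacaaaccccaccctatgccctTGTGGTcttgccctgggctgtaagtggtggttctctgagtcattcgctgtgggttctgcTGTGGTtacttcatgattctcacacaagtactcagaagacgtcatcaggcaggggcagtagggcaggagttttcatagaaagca
Gzmd, chr14:56132544-56132843, minus strand: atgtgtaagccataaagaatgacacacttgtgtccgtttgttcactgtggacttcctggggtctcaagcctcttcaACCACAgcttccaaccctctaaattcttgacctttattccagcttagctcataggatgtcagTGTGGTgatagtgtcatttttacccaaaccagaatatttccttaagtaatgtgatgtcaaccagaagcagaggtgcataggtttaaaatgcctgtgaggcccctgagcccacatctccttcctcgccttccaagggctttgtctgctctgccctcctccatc
Gzme, chr14:56120576-56120875, minus strand: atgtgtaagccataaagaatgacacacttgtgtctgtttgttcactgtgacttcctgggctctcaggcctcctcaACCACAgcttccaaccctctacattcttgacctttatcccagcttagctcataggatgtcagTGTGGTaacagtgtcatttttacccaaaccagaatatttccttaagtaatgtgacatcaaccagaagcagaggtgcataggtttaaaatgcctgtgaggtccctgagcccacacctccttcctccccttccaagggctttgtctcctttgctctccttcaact
Gzmf, chr14:56211358-56211657, minus strand: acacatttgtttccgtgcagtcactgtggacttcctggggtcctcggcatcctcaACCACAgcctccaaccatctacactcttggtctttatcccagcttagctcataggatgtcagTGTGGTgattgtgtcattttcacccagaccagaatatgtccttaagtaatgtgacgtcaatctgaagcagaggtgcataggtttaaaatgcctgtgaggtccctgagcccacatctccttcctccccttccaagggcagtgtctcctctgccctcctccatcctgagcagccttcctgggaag
Each of the 6 promoters held the word 2 times. Of the 19 cytotoxic genes with a tabulated promoter, 13 (68.4%) held it, among them *Lamp1*, which was higher in LN. The share was 15.2% of 6025 genes past the floor and 18.9% of all 27025 genes. It was 18.6% of the genes higher in tumor and 16.4% of those higher in LN. The word was 1 of 9 searched. The 6 granzyme promoters belong to paralogs and are not independent members. In global alignments those of *Gzmc* to *Gzmg* were identical to each other at 74.9% (*Gzmc* and *Gzmf*) to 93.4% (*Gzmd* and *Gzme*) of positions, and that of *Gzmb* to the other 5 at 44.4% to 50.2%. The transcripts themselves were not compared. Reads of close paralogs may be split or lost in counting, so the levels of *Gzmd*, *Gzme*, *Gzmf* and *Gzmg* relative to each other are uncertain. The RUNX genes themselves differed. *Runx3* was at 125 CPM in tumor and 131 CPM in LN, *Runx2* at 133 CPM in tumor and 8.86 CPM in LN and *Runx1* at 20.9 CPM in tumor and 38.1 CPM in LN. A word match is a description of these letters and not of binding.

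Cytokine and chemokine genes gave 10 of 15 higher in tumor and 1 in LN, with a median of 5.19, or 3.64 over the 14 members other than *Ccl5*. *Ccl5* was the most abundant, at 8189 CPM in tumor and 187 CPM in LN, and the inflammatory chemokines *Ccl4* and *Ccl3* were at 1347 and 508 CPM in tumor against 29.5 and 2.0 CPM in LN. *Ifng* was at 474 CPM in tumor and 12.0 CPM in LN, *Tnf* at 68.0 CPM in tumor and 15.2 CPM in LN and *Csf1*, the macrophage growth factor, at 238 CPM in tumor and 0.50 CPM in LN. *Areg*, a ligand of the EGF receptor, was at 123 CPM in tumor and 0.200 CPM in LN. *Il2* was under the floor at 2.69 CPM in tumor and 0.932 CPM in LN. *Ltb* (lymphotoxin beta) lay within 2-fold at 621 CPM in tumor and 809.8 CPM in LN, *Xcl1*, a chemokine for cross-presenting dendritic cells, was just past 2-fold at 47.9 CPM in tumor and 22.2 CPM in LN, and *Il16* was the member higher in LN, at 55.1 CPM in tumor and 148 CPM in LN.

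Inhibitory receptors and ectoenzymes gave 14 of 16 higher in tumor and 0 in LN, with a median of 4.69. *Pdcd1* was at 818 CPM in tumor and 0.899 CPM in LN and *Lag3* at 892 CPM in tumor and 2.96 CPM in LN. *Havcr2* had 3 UMIs in LN against 305 CPM in tumor, a ratio of 3054 (95% interval 1045 to 14811). *Tigit* was at 504 CPM in tumor and 6.36 CPM in LN, *Ctla4* at 595 CPM in tumor and 45.8 CPM in LN, and *Entpd1* (CD39, which degrades extracellular ATP) at 121 CPM in tumor and 1.07 CPM in LN. Not all such receptors were higher in tumor. *Vsir* (VISTA) and *Cd96* lay within 2-fold, at 107 CPM in tumor and 104 CPM in LN and at 92.9 CPM in tumor and 101 CPM in LN. *Btla* and *Nt5e* (CD73) were under the floor, at 2.59 CPM in tumor and 16.7 CPM in LN and at 2.22 CPM in tumor and 12.9 CPM in LN.

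Costimulatory receptors gave 6 of 9 higher in tumor and 1 in LN (median 2.31). *Tnfrsf9* (4-1BB) was at 777 CPM in tumor and 7.83 CPM in LN and *Tnfrsf4* (OX40) at 219.8 CPM in tumor and 1.96 CPM in LN. *Cd28* was within 2-fold, at 273 CPM in tumor and 155 CPM in LN, and *Slamf6*, a surface marker of stem-like T cells, was higher in LN, at 5.41 CPM in tumor and 46.9 CPM in LN.

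Transcription factors of effector and exhausted cells gave 17 of 21 higher in tumor and 1 in LN (median 2.53). *Bhlhe40* was at 1169 CPM in tumor and 10.9 CPM in LN, *Irf8* at 356 CPM in tumor and 4.23 CPM in LN, *Prdm1* (Blimp-1) at 54.0 CPM in tumor and 1.20 CPM in LN and *Tbx21* (T-bet) at 106 CPM in tumor and 5.36 CPM in LN. *Tox*, a factor needed for the exhausted state, differed less, at 113 CPM in tumor and 62.2 CPM in LN, and the T-box factor *Eomes* was at 29.8 CPM in tumor and 33.2 CPM in LN. *Myc* was the member higher in LN, at 42.7 CPM in tumor and 208 CPM in LN. Of 19 genes induced by T cell receptor signals or feeding back on it, 11 were higher in tumor and 1 in LN (median 1.42): *Rgs16*, which damps G protein signals, was at 548 CPM in tumor and 2.96 CPM in LN, and the nuclear receptors *Nr4a1*, *Nr4a2* and *Nr4a3* at 262, 363 and 81.2 CPM in tumor and 50.7, 37.9 and 19.4 CPM in LN. *Dusp2*, *Dusp6* and *Tnfaip3* lay within 2-fold, and *Rgs10* was lower in tumor, at 26.2 CPM in tumor and 201 CPM in LN.

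Receptors for inflammatory chemokines gave 6 of 7 higher in tumor and 0 in LN (median 4.26), with *Cx3cr1* at 66.1 CPM in tumor and 0.200 CPM in LN, *Ccr8* at 40.0 CPM in tumor and 0.966 CPM in LN and *Cxcr6* at 788 CPM in tumor and 96.5 CPM in LN. *Cxcr3*, the receptor for the IFNγ-induced chemokines CXCL9 and CXCL10, lay within 2-fold at 43.8 CPM in tumor and 29.9 CPM in LN. Cytokine receptors gave 10 of 17 higher in tumor and 1 in LN (median 1.63), among them *Il2rb* at 1119 CPM in tumor and 157 CPM in LN, *Il2ra* at 44.3 CPM in tumor and 1.73 CPM in LN, *Il10ra* at 230.3 CPM in tumor and 7.13 CPM in LN and *Il12rb2* at 111 CPM in tumor and 1.13 CPM in LN. *Il1r2*, the decoy receptor of IL-1, stood at 143 CPM against 0 UMIs, at least 1432-fold higher. The shared chain *Il2rg* was nearly level, at 709.6 CPM in tumor and 755 CPM in LN. The chains of the IFNγ receptor lay on opposite sides: *Ifngr1*, which binds IFNγ, was at 718 CPM in tumor and 182 CPM in LN, and *Ifngr2*, which is needed to pass the signal on, at 0.639 CPM in tumor and 30.1 CPM in LN, a 47.1-fold difference toward LN.

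Of 26 genes linked to IFNγ responses, 20 lay within 2-fold, 6 (23.1%) were higher in tumor and 0 in LN. Over all genes these shares were 14.2% and 8.78%. The median was 0.39, against 0.05 over all genes. *Irf8* and *Ly6a* (Sca-1), at 1906 CPM in tumor and 76.8 CPM in LN, were far above the others. The remaining 4 were *Gbp3*, *Gbp6*, *Tap1* and *Psmb9*, with log2 ratios from 1.09 to 1.85. *Irf1* was at 319 CPM in tumor and 239 CPM in LN and *Gbp2* at 65.7 CPM in tumor and 80.9 CPM in LN. Of the antiviral interferon-stimulated genes 2 of 20 (10.0%) were higher in tumor and 0 in LN (median 0.29), *Ifi27l2a* at 2136 CPM in tumor and 477 CPM in LN and *Isg20* at 87.1 CPM in tumor and 26.4 CPM in LN.

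Cell cycle genes were higher in tumor almost throughout. Of the mitosis list, 23 of 24 were higher (median 3.97), with *Ube2c*, an enzyme that marks mitotic cyclins for degradation, at 234 CPM in tumor and 2.60 CPM in LN, *Ccna2* at 106 CPM in tumor and 2.36 CPM in LN, *Mki67* at 125 CPM in tumor and 7.63 CPM in LN and *Top2a* at 158 CPM in tumor and 12.9 CPM in LN. Of the DNA replication list, 20 of 25 were higher and 0 lower (median 1.52), with the nucleotide enzymes *Rrm2* at 139 CPM in tumor and 6.99 CPM in LN and *Tk1* at 79.7 CPM in tumor and 3.03 CPM in LN. The licensing helicase differed less. *Mcm6* and *Mcm3* had log2 ratios of 1.53 and 1.32, while *Mcm2*, *Mcm4* and *Mcm7* were under 2-fold. *Cdt1* was at 22.3 CPM in tumor and 31.3 CPM in LN.
Per cell, at 1600 UMIs, 21.6% (95% interval 20.6 to 22.7) of the tumor cells and 0.358% (0.227 to 0.537) of the LN cells held at least 5 UMIs of the mitosis list, and 20.2% (19.2 to 21.2) and 1.06% (0.823 to 1.34) at least 5 of the replication list. Without the 1892 tumor and 82 LN cells past either limit, the median of the mitosis list was 1.16 and that of the replication list 0.23. Both lists chose the cells left out, so a fall of their medians was built in. In the thinned cells that remained, 932 genes were higher in tumor and 636 in LN, against 1025 and 626 in all thinned cells.

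Promoters of the mitosis genes shared short words, and these words were picked for display after the shares of 9 searched words had been seen. Of 21 with a promoter in the table, 16 (76.2%) held both CCAAT, the word bound by NF-Y, and TTTGAA, known as CHR, the element of late cell cycle genes, against 5.86% of the genes past the floor. For the 15 glycolysis genes with a promoter, the hypoxia-response core NACGTG was found in 10 (66.7%), against 31.4%, and for 16 antiviral interferon-stimulated genes the interferon-stimulated response element (ISRE) in 10 (62.5%), against 4.05%. The promoters of *Ube2c*, *Cdk1*, *Plk1* and *Cenpf* are shown since their genes were among those with both words and a log2 ratio over 3. Capitals mark CCAAT and TTTGAA on either strand.
Ube2c, chr2:164769679-164769978, plus strand: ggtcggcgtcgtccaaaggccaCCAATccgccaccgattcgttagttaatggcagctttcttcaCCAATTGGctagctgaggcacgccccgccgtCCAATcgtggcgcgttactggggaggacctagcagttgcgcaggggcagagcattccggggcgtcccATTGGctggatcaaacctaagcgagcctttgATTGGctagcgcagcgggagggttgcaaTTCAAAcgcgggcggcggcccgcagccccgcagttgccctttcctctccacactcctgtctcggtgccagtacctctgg
Cdk1, chr10:69352863-69353162, minus strand: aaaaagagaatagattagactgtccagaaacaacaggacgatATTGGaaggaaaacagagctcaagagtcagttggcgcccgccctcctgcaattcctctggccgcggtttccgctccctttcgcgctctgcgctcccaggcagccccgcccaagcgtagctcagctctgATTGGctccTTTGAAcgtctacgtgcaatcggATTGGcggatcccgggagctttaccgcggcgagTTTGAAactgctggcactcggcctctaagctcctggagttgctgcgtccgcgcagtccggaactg
Plk1, chr7:122159185-122159484, plus strand: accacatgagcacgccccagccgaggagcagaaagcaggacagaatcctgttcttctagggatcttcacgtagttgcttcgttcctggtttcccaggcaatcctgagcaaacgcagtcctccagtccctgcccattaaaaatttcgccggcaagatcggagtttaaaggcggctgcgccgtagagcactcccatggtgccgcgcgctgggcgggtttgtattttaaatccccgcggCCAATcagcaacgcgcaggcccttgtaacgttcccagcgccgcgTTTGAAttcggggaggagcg
Cenpf, chr1:189688037-189688336, minus strand: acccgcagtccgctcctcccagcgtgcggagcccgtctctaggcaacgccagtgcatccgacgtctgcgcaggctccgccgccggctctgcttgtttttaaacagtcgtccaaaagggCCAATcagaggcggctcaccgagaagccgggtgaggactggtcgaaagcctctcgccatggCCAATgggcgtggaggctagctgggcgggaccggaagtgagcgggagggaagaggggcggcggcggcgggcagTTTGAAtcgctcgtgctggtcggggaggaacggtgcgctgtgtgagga
*Cdk1*, the kinase that drives entry into mitosis, was at 68.4 CPM in tumor and 2.06 CPM in LN, the mitotic kinase *Plk1* at 26.6 CPM in tumor and 1.27 CPM in LN, and *Cenpf*, a kinetochore protein, at 63.3 CPM in tumor and 2.06 CPM in LN. CCAAT matched 6 times in the *Ube2c* promoter and 3 times in that of *Cdk1*. A word not found says only that these letters are not in this window.

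Glycolysis genes were higher in tumor for 14 of 16 members and lower for 0 (median 1.81). *Gapdh* was at 7332 CPM in tumor and 1376 CPM in LN, *Ldha* at 1730.1 CPM in tumor and 515 CPM in LN, and *Slc16a3*, the exporter of lactate, at 96.6 CPM in tumor and 0.433 CPM in LN. The glucose transporter *Slc2a3* was at 122 CPM in tumor and 15.6 CPM in LN. At 1600 UMIs, the median cell held 24 UMIs of the list in tumor and 6 in LN. Hypoxia response genes gave 7 of 13 higher in tumor and 1 in LN (median 1.09), with *Mxi1* at 103 CPM in tumor and 8.59 CPM in LN and *Bnip3*, a mitophagy receptor, at 52.6 CPM in tumor and 4.90 CPM in LN. *Pdk1*, a kinase of pyruvate dehydrogenase, was the member higher in LN, at 12.4 CPM in tumor and 59.5 CPM in LN. Genes of the serine, one-carbon and amino acid list lay near level, with 1 of 15 higher in tumor and 2 in LN (median 0.04). The list of cholesterol and fatty acid synthesis, which also holds lipid transport genes, gave 4 of 15 (26.7%) higher in tumor and 1 in LN (median 0.36). The 4 were *Fdft1*, *Cyp51*, the lipid carrier *Fabp5* and the sterol carrier *Stard4*, and the 1 was the cholesterol exporter *Abcg1*. Of 79 nuclear genes of oxidative phosphorylation, 7 (8.86%) were higher in tumor and 0 in LN (median 0.50). All 13 mitochondrially encoded genes were lower in tumor, 8 of them past 2-fold (median -1.06), and of 82 ribosomal protein genes 16 were higher in LN and 1 in tumor (median -0.69).

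The list of galectins, annexins, S100 proteins and metallothioneins gave 15 of 19 higher in tumor and 0 in LN (median 2.64). It also holds *Vim*, *Capg*, *Crip1*, *Slc30a1*, *Tmsb4x* and *Tmsb10*, which belong to none of these families and enter the count and median. The members within 2-fold were *Anxa6*, *Slc30a1*, *Tmsb4x* and *Tmsb10*. *Lgals1* was at 4988 CPM in tumor and 181 CPM in LN, *S100a6* at 3092 CPM in tumor and 44 CPM in LN, *S100a4* at 1247 CPM in tumor and 14.4 CPM in LN and *Anxa2* at 1583 CPM in tumor and 19.0 CPM in LN. Survival and death genes were mixed, with 7 of 17 higher in tumor and 2 in LN (median 0.67). *Bcl2a1b* and *Bcl2a1d*, close paralogs of a BCL-2 relative that reads may not tell apart, were at 549 and 437 CPM in tumor and 28.1 and 4.33 CPM in LN. The pro-apoptotic *Bbc3* (PUMA) was at 12.8 CPM in tumor and 46.1 CPM in LN.

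Genes that can respond to tissue handling were given the same count, since the preparation differed between the tissues. Of 15 immediate early genes 3 were higher in tumor and 5 in LN (median 0.12). *Fos* and *Jun* were higher in LN, at 165 CPM in tumor and 1042 CPM in LN and at 198 CPM in tumor and 882 CPM in LN, as was *Ppp1r15a* at 149 CPM in tumor and 529.6 CPM in LN, while *Atf3* and *Ier3* were higher in tumor, at 34.1 CPM in tumor and 5.86 CPM in LN and at 41.4 CPM in tumor and 5.49 CPM in LN. Of 17 heat shock and chaperone genes 3 were higher in tumor, the endoplasmic reticulum proteins *Hsp90b1*, *Pdia3* and *Pdia6*, and 0 in LN (median 0.43). The heat shock genes *Hspa1a* and *Hspa1b* were at 188 CPM in tumor and 139 CPM in LN and at 278 CPM in tumor and 321 CPM in LN. The part of tissue preparation in the results was not tested.

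Shares of cells were compared at 1600 UMIs per cell, which left out 704 shallower tumor cells and 237 LN cells. *Gzmb* was found in 85.2% of tumor cells and 0.405% of LN cells and *Ccl5* in 93.4% of tumor cells and 6.65% of LN cells. *Lag3* was found in 70.5% of tumor cells and 0.311% of LN cells, *Pdcd1* in 67.8% of tumor cells and 0.0934% of LN cells and *Ifng* in 38.8% of tumor cells and 1.29% of LN cells. *Havcr2* was found in 34.8% of tumor cells and in 0 of 6421 LN cells, which allows a share of cells with a UMI at this depth of up to 0.0467% (3 cells) and sets no limit on cells that express the gene. The homing genes stood the other way, with *Ccr7* in 5.75% of tumor cells and 55.2% of LN cells and *Klf2* in 18.8% of tumor cells and 89.4% of LN cells. *Tcf7* was found in 3.09% of tumor cells and 58.0% of LN cells. The 40 genes looked at were a chosen set, and shares were not taken over all genes. For each of the 40, the order of the 2 libraries was the same with no thinning, at 3000 UMIs and with no demand for *Cd2*, *Cd8a* and *Cd8b1*. Unthinned, *Gzmb* was in 92.7% of tumor and 1.05% of LN cells and *Tcf7* in 5.24% and 85.1%. As a level of free RNA, 17 LN barcodes with at least 3 B cell markers and no UMI of *Cd3d*, *Cd3e*, *Cd8a* or *Cd8b1* (median 2448 UMIs, not thinned) held *Tcf7*, *Lef1*, *Igfbp4* or *Dapl1* in 0 cases, and 5 tumor barcodes chosen in the same way by macrophage markers (median 5887 UMIs) held *Gzmb*, *Pdcd1*, *Lag3* or *Ifng* in 0 cases and *Ccl5* in 1. Other genes were found in them: *Klf2* in 16, *Ccr7* in 15 and *Cd69* in 10 of the 17 LN barcodes, and *Havcr2*, *Ccl3*, *Ccl4* and *Entpd1* in 2 and *Lgals1* and *S100a6* in 4 of the 5 tumor barcodes. B cells and macrophages can express such genes themselves, so for these the barcodes give no level of free RNA. So few barcodes set a wide limit, with exact upper bounds of 19.5% for 0 of 17 and 52.2% for 0 of 5, and shares below these cannot be told from free RNA.

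**Figure D3:**
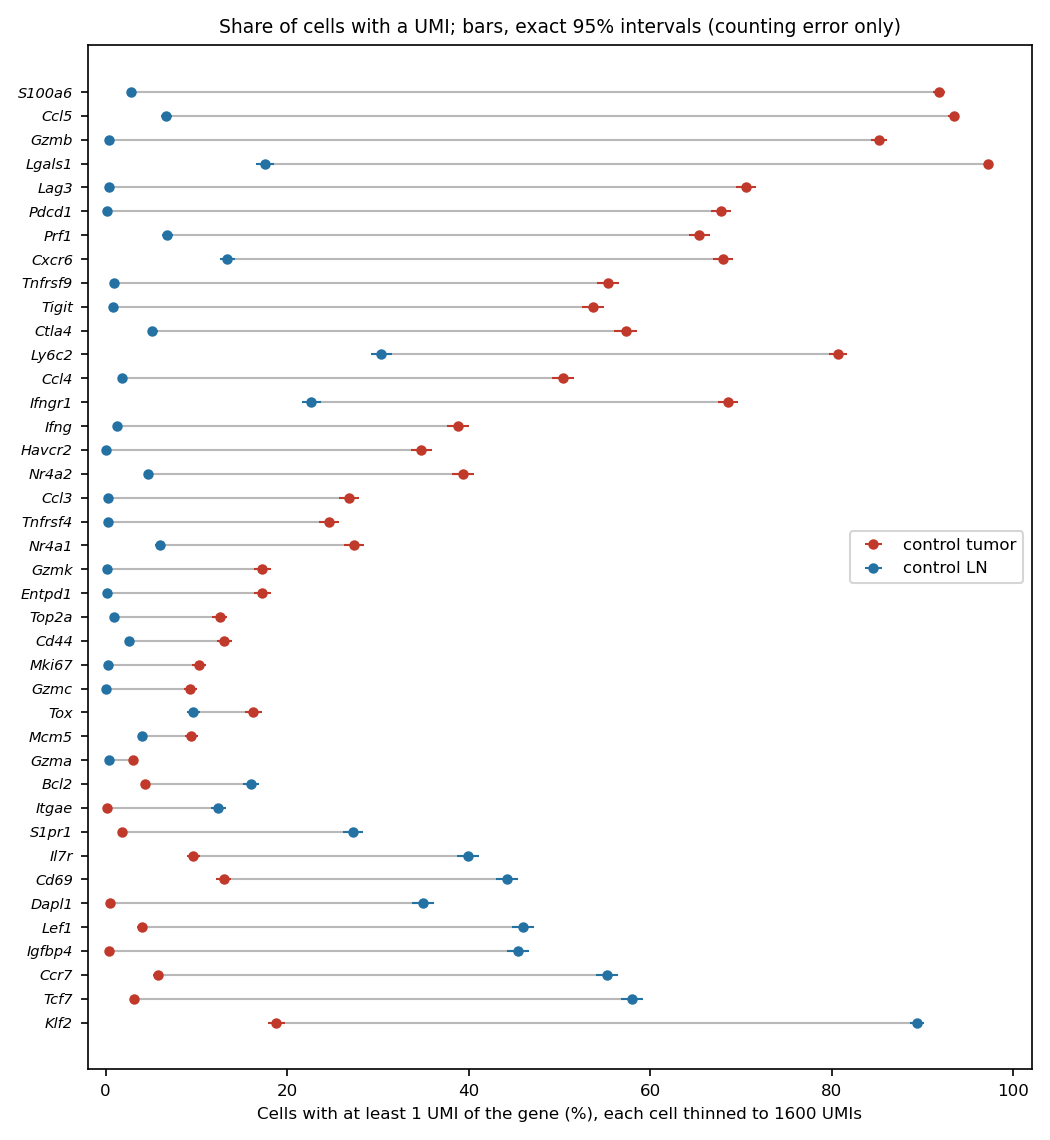
Percentage of control tumor cells (red) and control LN cells (blue) with at least 1 UMI of each of 40 genes, each cell thinned to 1600 UMIs; bars are exact 95% Clopper-Pearson intervals. *S100a6*, *Ccl5* and *Gzmb* show the widest gaps toward the tumor and *Klf2*, *Tcf7* and *Ccr7* toward LN, while *Gzma* and *Mcm5* differ by less than 6 percentage points.

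Each cell was then placed by its summed UMIs of 6 homing and resting-state genes (*Ccr7*, *S1pr1*, *Klf2*, *Il7r*, *Tcf7*, *Lef1*) and of 11 genes called cytotoxic here (granzymes A to G and K, *Prf1*, *Nkg7* and the chemokine gene *Ccl5*). Of the 11, *Ccl5* and *Nkg7* had the highest CPM in both libraries, at 8189 and 3931 CPM in tumor and 187 and 585 CPM in LN. The genes of both sums already differed in the pooled counts of the same libraries, so the split of cells is no separate support. More cytotoxic than homing UMIs were found in 97.7% (97.3 to 98.1) of 6402 tumor cells and in 3.77% (3.32 to 4.26) of 6421 LN cells. The median tumor cell held 27 cytotoxic and 0 homing UMIs, and the median LN cell 1 and 7. On the other side stood 121 tumor cells (1.89%) with more homing UMIs and 242 LN cells with more cytotoxic UMIs. Genes outside both sums were then read in these small groups. The 121 tumor cells held 181 CPM of *Pdcd1* and 145 CPM of *Lag3*, from 35 and 28 UMIs. The LN cells with more homing UMIs held 0.521 and 1.98 CPM. *Lgals1* was at 769.6 CPM in these tumor cells and 137 CPM in those LN cells, and *Ctla4* at 170 and 39.9 CPM. *Havcr2* had 0 UMIs in both groups. *Tox* and *Cxcr6* lay the other way, at 25.8 and 46.5 CPM in these tumor cells against 65.2 and 92.4 CPM. These tumor values rest on 5 and 9 UMIs. The same tumor cells held 92.98 CPM of *Igfbp4* and 103 CPM of *Dapl1*, from 18 and 20 UMIs, against 615 and 344 CPM in those LN cells. The 242 LN cells held 2.58 CPM each of *Pdcd1* and *Lag3*, from 1 UMI of each, and 0 UMIs of *Havcr2*, together with 2074 CPM of *Ly6c2*, 189 CPM of *Xcl1* and 470.0 CPM of *S100a6*. Cells holding transcripts of 2 cells in 1 droplet were not removed, and their part in these groups was not tested.

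**Figure D4:**
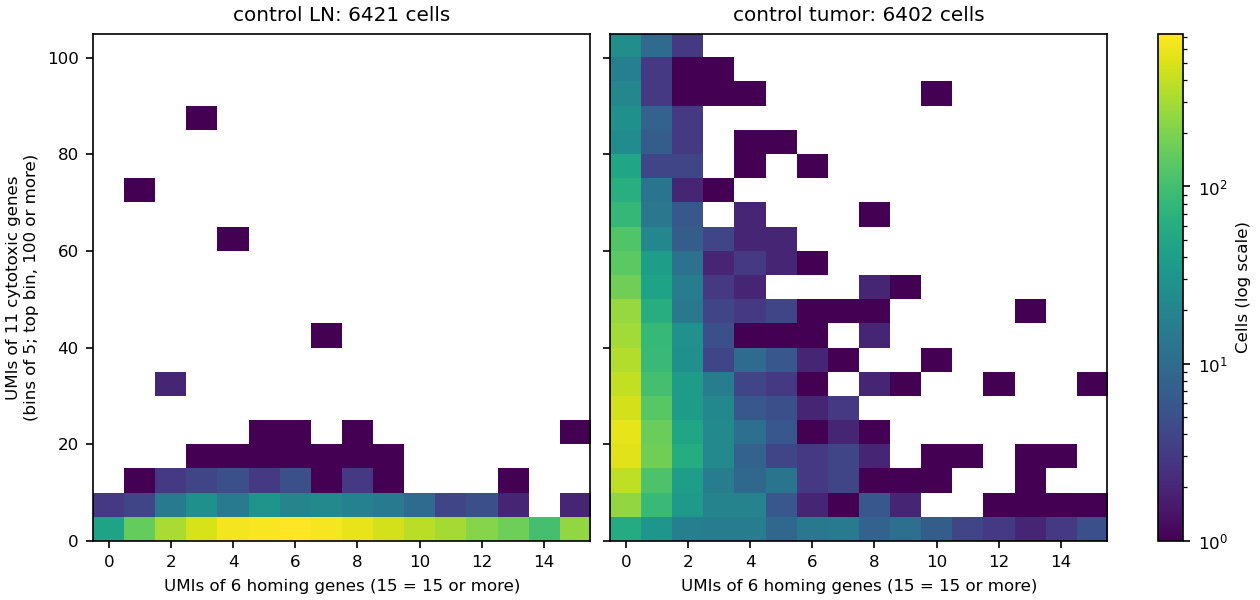
Number of cells (color, log scale) by summed UMIs of 6 homing genes (x axis, with 15 standing for 15 or more) and 11 cytotoxic genes, the chemokine gene *Ccl5* among them (y axis, bins of 5 UMIs, the top bin 100 or more) in control LN (left, 6421 cells) and control tumor (right, 6402 cells), each cell thinned to 1600 UMIs. White means 0 cells. LN cells lie along the bottom and tumor cells along the left edge, with few cells between.

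LN cells with at least 1 UMI of *Ccl5*, a gene of antigen-experienced cells, were set beside the tumor cells as the LN cells with a transcript in common with them. They numbered 664 (9.97% of LN cells, 9.26 to 10.7) and had a median of 5837 UMIs, against 3950 in the other LN cells, so that deeper cells were more often among them. Against these cells 1054 genes were at least 2-fold higher in tumor and 580 at least 2-fold lower. Of the other 1062 genes higher in tumor, 926 (87.2%) were at least 2-fold higher against these cells too, and of the 656 genes higher in LN 522 (79.6%). The same tumor library stands in both comparisons and these cells are part of the LN library, so much of this overlap was built in. The median of the inhibitory receptor list was 3.71 against these cells and 4.69 against all LN cells, that of the cytotoxic list 3.97 and 4.72, and that of the naive transcription factors -1.42 and -1.79. The cytokine list without *Ccl5* moved most of these, from 3.64 to 2.11, and *Xcl1*, at 99.2 CPM in these LN cells, was past 2-fold the other way (log2 ratio of tumor over them -1.04). *Gzmb* was at 13.5 CPM in these LN cells, *Cxcr6* at 98.0 CPM and *Tcf7* at 482 CPM, against 2.70, 96.2 and 593 CPM in the other LN cells. *Ifngr2* was at 4.83 CPM in these LN cells, from 20 UMIs, and 34.1 CPM in the others, and *Ifngr1* at 303 and 162 CPM. The log2 ratios of tumor over these LN cells were -1.83 for *Ifngr2* and 1.24 for *Ifngr1*.

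The CD8-IFNγRKO tumor and LN libraries (8638 and 6754 cells) hold no cell of the control pair, but they are another genotype and not replicates. In that pair 15.4% of the same 7469 genes were at least 2-fold higher in tumor and 10.8% in LN. Of the 1063 genes higher in control tumor, 1060 had a ratio of the same sign there and 909 (85.5%) were past 2-fold, and of the 656 higher in control LN 655 had the same sign and 566 (86.3%) were past 2-fold. No gene past 2-fold in 1 pair was past it on the opposite side in the other. The widest gaps, picked after the values were seen, were those of *Klra3*, *Gzmg* and *Ifitm1*, with log2 ratios of 4.28, 4.74 and 7.10 in the control pair and 0.21, 1.21 and 3.64 in the CD8-IFNγRKO pair. *Gzme* and *Gzmd*, at 364 and 282 CPM in control tumor, were at 49.8 and 41.6 CPM in CD8-IFNγRKO tumor. *Gzma* lay the other way, at 44.7 CPM in control and 174.6 CPM in CD8-IFNγRKO tumor. Whether the contrasts of the genotypes differ was not tested.

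**Figure D5:**
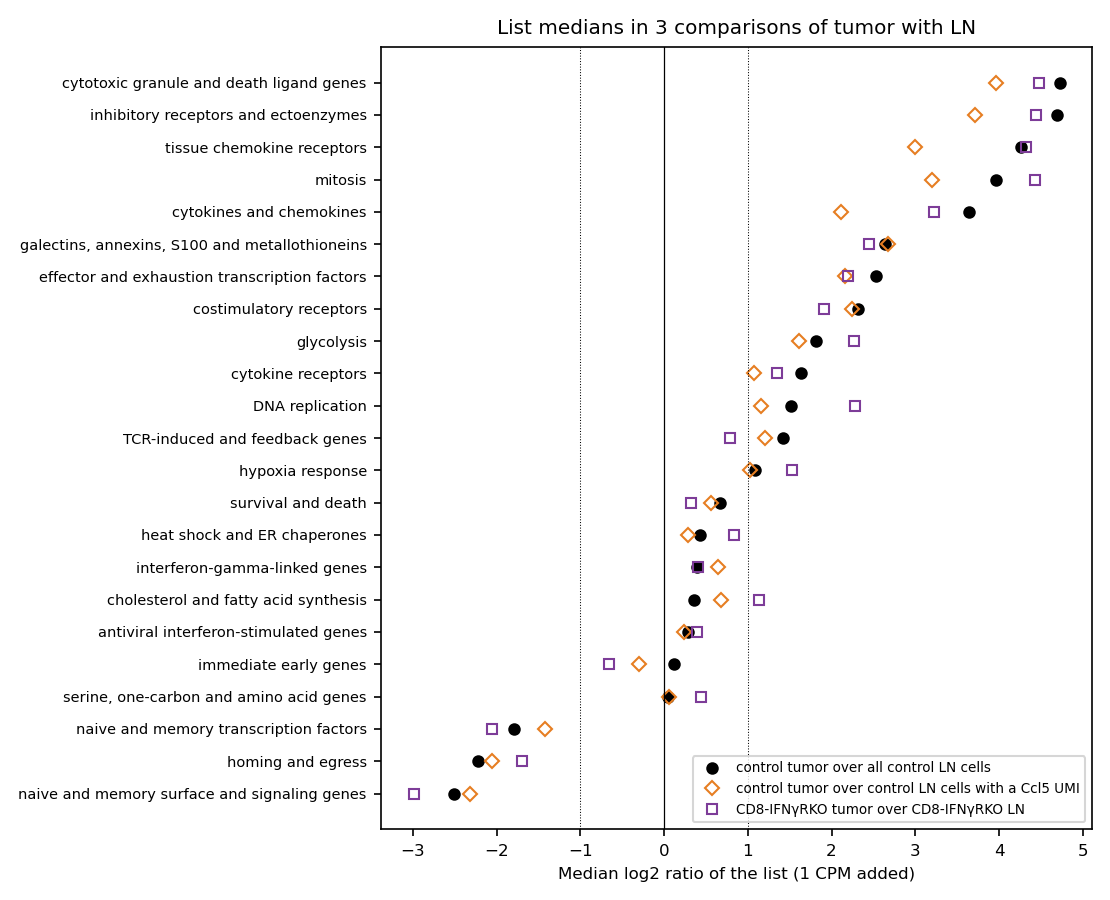
Median log2 ratio (x axis, 1 CPM added) of 23 gene lists for control tumor over all control LN cells (black circles), over the 664 control LN cells with a *Ccl5* UMI (orange diamonds), and for CD8-IFNγRKO tumor over CD8-IFNγRKO LN (purple squares); *Ccl5* is left out of all 3, and dotted lines mark 2-fold. The black circles and orange diamonds share the tumor library; the top 11 lists lie above 2-fold toward tumor and the bottom 3 lists past 2-fold toward LN in all 3 comparisons.

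The usage of T cell receptor beta V segments also differed, read from the UMIs of the segment genes in the RNA libraries. The study also holds T cell receptor libraries of the tumors but none of LN, and they were not used here. The 3 most used segments took 74.1% of 133898 UMIs in tumor, with *Trbv15* at 33.3%, *Trbv14* at 25.7% and *Trbv12-1* at 15.2%, and 25.2% of 50980 UMIs in LN, where *Trbv13-2* led at 8.92%. The effective number of segments (the exponential of the Shannon entropy) was 6.83 in tumor and 17.9 in LN. UMIs from different cells of 1 clone are not independent, and no file used here divides the 3 mice.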

How the data were processed

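Single-cell 5′ RNA libraries (10x Genomics) were made from sorted CD8+ T cells, 1 per tissue and genotype, each from 3 pooled mice. The authors deposited raw UMI counts per gene and barcode for each library, made with Cell Ranger 6.0.0 per the submitters' processing notes against the mouse mm10 reference. No file was excluded from the 4 libraries. Samples were grouped by the genotype and tissue in their labels.

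From the deposited counts, a barcode entered if it held 200 to 6000 genes, if no more than 3% of its UMIs were mitochondrial, and if *Cd2*, *Cd8a* and *Cd8b1* each had 1 UMI or more. UMIs were pooled per gene and library and divided by the library total (CPM). Log2 ratios had 1 CPM added, and genes needed a mean of 10 CPM. T cell receptor, immunoglobulin, mitochondrial and ribosomal protein genes and the 3 genes of the cell filter were left out of the counts of genes and were described as lists or single values. A difference was called at 2-fold. The study's Wilcoxon test over cells was not used, since cells of 1 library are not replicates, and no test was made. Where a library had 0 UMIs, a floor of 3 UMIs per library was used. Intervals are exact at 95% and, because cells share a pool, cover counting error only. Tumor cells were sequenced to a median of 6306 UMIs and LN cells to 4053, so shares of cells were taken after thinning to 1600 UMIs. No doublet caller was run, and leaving out the 8% of cells with most UMIs was an alternative.

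The genes named were the 12 highest and 12 lowest ratios among genes reaching 50 CPM on 1 side or both, and members of gene lists by function, whose counts cover the whole list. Some genes that the rule names are not reported here, and the per-cell homing sum was taken over 6 genes in place of the 7 planned, a change made after the data had been analysed. The cells compared, lists and alternatives were chosen with earlier results of these data known. The alternative without cycling cells was chosen after seeing the data. On simulated counts for 7469 genes of control tumor against control LN, with 200 changed, 100% of the changed genes were called on the right side and 0% of the others, and the ratio interval held the true value for 95.0%. The folds set were well past 2-fold and the counts varied by Poisson error only, so these shares check the computation. They give no error rate for genes near 2-fold or for differences between mice or preparations. Promoter words were searched on both strands in RefSeq promoters of GRCm38.p6. Computations used scipy 1.17.1, numpy 2.4.6, matplotlib 3.10.9 and pandas 2.3.3 under Python 3.11.15.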

Additional observations from a re-analysis of the deposited data

How the results depend on the processing

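With 1 library a side no replicate could be left out, and no paired analysis was possible because the result comes from no test and no replicate numbers exist. Counts of genes higher in tumor and in LN were 1063 and 656 as reported, 455 and 177 at a mean of 50 CPM, and 1878 and 1374 with no filter on low values, where by construction another number of genes entered. With ribosomal protein, mitochondrial, T cell receptor and immunoglobulin genes left out of the library size the count for LN was 1316. The hypoxia median, 1.09 as reported, was 0.82 with that library size, 0.96 in cells thinned to 1600 UMIs, 0.92 with 5 CPM added and 0.93 with no filter, and the costimulatory median went from 2.31 to 0.85 with no filter. Without cells holding at least 5 UMIs of the replication or mitosis list, the replication median was 0.23, and the ratios of *Cdc20* (-0.40), *Fen1* (-0.0289), *Mcm3* (-0.0748), *Mcm5* (-0.34), *Pola1* (-0.40) and *Prim1* (-0.72) turned toward LN. These genes belong to the lists that chose the cells left out. With no thinning, 96.4% of LN cells held more homing and 2.84% more cytotoxic UMIs. The other 305 list medians stayed past 2-fold on the same side or stayed within 2-fold, as did 5025 ratios of single genes. Of the remaining ratios, 94 fell below 2-fold and 40 passed it. A change of sign within 2-fold was not counted as a move. Shares of cells were the least stable: 182 moved by more than their interval and 58 did not, though the order of the libraries was kept for all 40 genes with no thinning, at 3000 UMIs and with no demand for *Cd2*, *Cd8a* and *Cd8b1*. Of the moved shares, 77 came with no thinning and 71 at 3000 UMIs, where most cells were counted at greater depth. The other 34 came with no demand for the genes of the cell filter. The cause of these moves was not tested. Depth limits genes near 0 in LN, whose ratios rest on few UMIs.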
